A study of Mus musculus with 150 samples.

Results

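A stretch of mouse chromosome 9 that holds the checkpoint kinase gene Chek1 was raised in copy number in 1 of 3 lung tumours of the same animal. The stretch is a window of 3 neighbouring bins of about 500 kb out of the 5331 bins of the genome, chr9:35807085-37299936 on GRCm38, together 1.49 Mb. The files list 6 genes of interest in it, Chek1, Ei24, Stt3a, Fez1, Acrv1 and Ccdc15. The window was chosen by measured values, since it had stood out from its surroundings in these same cells. Its levels are therefore given as a description with no test, against 10 bins on either side (the flanks) and against the autosomal median of the cell.

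The series holds genomic DNA of 150 single cells, 50 from each of the tumours T9, T1 and T7, all taken from mouse M3, which the labels class as KP_30w_ND, 30 weeks after induction. The mice were of a mixed C57BL/6 x Sv129 background, and the strains named in the labels include Trp53flox/flox, which loses Trp53 once recombined, and the reporters Rosa26LSL-tdTomato and Rosa26LSL-Luciferase. All 3 tumours share that background. Per the labels, tumours in the wider study were started with AdSPC-Cre, an adenovirus that expresses Cre from a surfactant promoter of alveolar type 2 cells, or with AdCMV-FlpO, and the sources used here do not say which of them this animal received. The labels give AT2 cells of lung tissue as the source, and DNA copy number holds no marker with which to check that. Each tumour is 1 sample and its cells are not replicates of a condition, so spreads are between cells of a tumour and no difference between tumours was tested.

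After the filters 50 T9, 47 T1 and 48 T7 cells remained. Sequenced bases per cell were taken as the deposited depth times the bin length, summed over bins. Depth was read as mean coverage per base, and no read counts were used. Sequenced bases ranged from 43.3 to 82.1 Mb in T9 cells and from 20.5 to 170.1 Mb in T1 cells. In T7 cells they ranged from 24.6 to 140.3 Mb. The window itself held a median of 66.9 kb of sequenced bases in T9 cells, 36.7 kb in T1 cells and 41.6 kb in T7 cells. Noise, the scatter between neighbouring bins of a cell, had medians of 0.133 in T9, 0.191 in T1 and 0.146 in T7. Median sequenced bases were 56.7, 97.7 and 69.3 Mb, so the tumour with the most bases also had the most noise. How far depth sets the noise was not tested. The spread of all 3-bin runs about their flanks within a cell, as a scaled median absolute deviation, was 0.11 in T9, 0.17 in T1 and 0.12 in T7 on the log2 scale. One T9 cell, 180109, went against its tumour's pattern on the whole of chromosome 9 and is described apart from the others.

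Chek1 encodes CHK1, the kinase that ATR switches on when replication forks stall, and which holds back entry into mitosis until DNA is repaired. Ei24 was found as a gene induced by p53 and encodes a membrane protein of the endoplasmic reticulum that takes part in autophagy. Stt3a encodes a catalytic subunit of the oligosaccharyltransferase, the enzyme that attaches N-glycans to proteins entering the secretory pathway. Fez1 encodes an adaptor of kinesin motors used in axon outgrowth, and Acrv1 a protein of the sperm acrosome. Ccdc15 encodes a protein with coiled coils.

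The position of each gene decides how far it shares the window's level. Acrv1 (chr9:36693220-36698845), Chek1 (chr9:36708482-36726658), Stt3a (chr9:36729344-36767622) and Ei24 (chr9:36779153-36797334) lay side by side in the middle bin, chr9:36304702-36802318, and shared 1 value there. Fez1 (chr9:36821398-36878926) lay wholly in the last bin, chr9:36802319-37299936. Ccdc15 (chr9:37267462-37350218) crossed the end of the window: 39.2% of its length lay in the last bin and the rest, with its 5′ end, in the flank bin that follows. The first bin, chr9:35807085-36304701, listed none of the 6 genes. A bin's level is that of about 500 kb and cannot be assigned to a single gene in it.

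The 100 bases before a start site of Chek1 and of Ccdc15, from RefSeq on GRCm38.p6, show on which side of the window's end each gene starts. The Chek1 stretch, chr9:36726659-36726758 on the minus strand, lies inside the middle bin, and the Ccdc15 stretch, chr9:37348358-37348457 on the minus strand, starts 48.4 kb past the end of the window, in a bin at the flank level. The start site given for Ccdc15 lies inside the gene's full RefSeq span, whose 5′ end is farther still from the window. Capitals mark the reverse complement of GGCGGGAA, an E2F-type motif.
Chek1: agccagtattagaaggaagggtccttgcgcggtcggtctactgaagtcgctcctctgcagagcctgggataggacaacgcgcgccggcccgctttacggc
Ccdc15: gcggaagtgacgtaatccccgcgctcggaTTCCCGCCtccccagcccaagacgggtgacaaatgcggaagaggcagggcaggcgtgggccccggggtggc
Both stretches were searched on both strands for 4 motifs, the GC box GGGCGG, the CCAAT box, and the E2F-type motifs TTTCGCGC and GGCGGGAA, the last of which can overlap a GC box. The 1 match was that in Ccdc15, and 0.861% of the 32851 stretches of the same length in the RefSeq table held that motif. The GC box was held by 24.7% of them, the CCAAT box by 18.9% and TTTCGCGC by 0.103%.

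In T9 the window stood at nearly double the autosomal level of the cell and clearly above a neighbourhood that was itself raised. The window level, the median of its 3 bins as log2 relative to the autosomal median, was 0.91 in T9 (SD 0.22, n = 50 cells, range -0.14 to 1.69), -0.73 in T1 (SD 0.19, n = 47, range -1.07 to -0.08) and -0.10 in T7 (SD 0.17, n = 48, range -0.77 to 0.17). As a ratio to the autosomal level those medians were 1.88 in T9, 0.604 in T1 and 0.933 in T7. Except for cell 180109, the T9 cells did not overlap with T1 or T7, the next lowest T9 cell standing at 0.49. The window was chosen by these measured values, so that gap is part of the choice. The flanks stood at 0.45 in T9 (SD 0.15), -0.65 in T1 (SD 0.11) and -0.04 in T7 (SD 0.15). Window and flanks thus lay apart in T9 and close together in T1 and T7. By flank level too, most T9 cells stood apart from T1 and T7. Without cell 180109 the lowest T9 flank level was 0.03, in cell 180120. The highest flank level was -0.36 in T1 and 0.09 in T7.

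The step is the window minus its flanks within each cell. Its median was 0.48 in T9 (SD 0.11, range 0.01 to 0.73), a ratio of 1.39 between window and flanks (quartiles 1.31 and 1.42). It was -0.05 in T1 (SD 0.18, range -0.41 to 0.34) and -0.02 in T7 (SD 0.15, range -0.41 to 0.23). A step of 0.3 or more was present in 49 of 50 T9 cells (98%, exact Clopper-Pearson 95% interval 89.4 to 99.95%, counting error only). It was present in 2 of 47 T1 cells (4.26%, interval 0.52 to 14.5%) and in 0 of 48 T7 cells (exact upper limit 7.40%, or 6.25% as 3 cells of the total). Steps of -0.3 or less occurred in 0 of 50 T9 cells (exact upper limit 7.11%, or 6% as 3 cells of the total), in 5 of 47 T1 cells and in 2 of 48 T7 cells. The T1 counts are to be read against that tumour's wider scatter: 4.62% of all values of 1 run of 3 bins in 1 T1 cell reached 0.3, against 1.09% in T9 and 1.53% in T7. The T1 share of 4.26% lies near its own background.

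**Figure D1:**
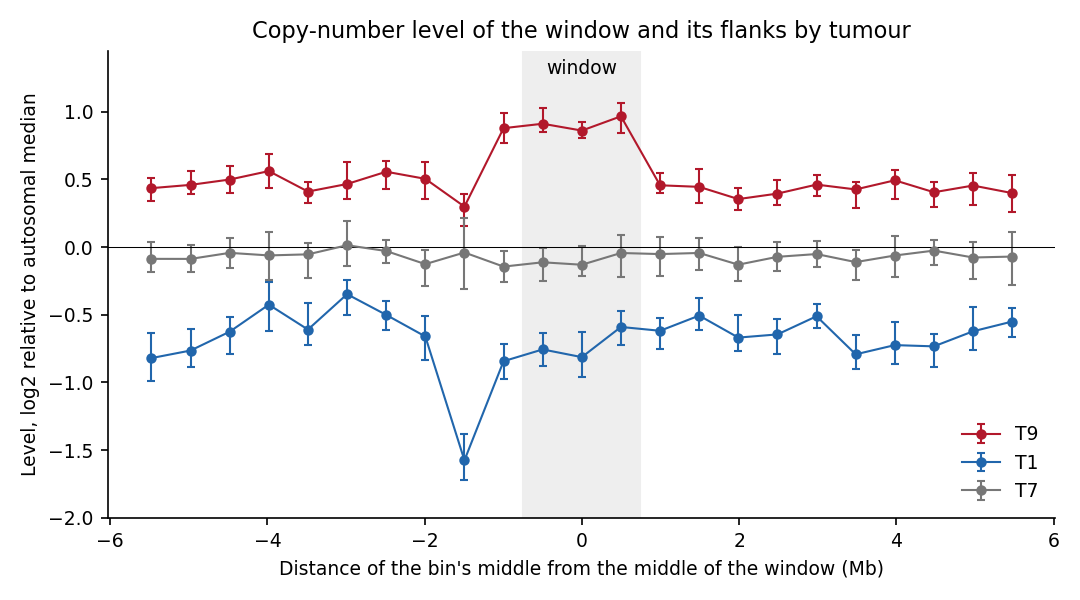
Median level of each bin (log2 relative to the autosomal median of the cell) against the distance of the bin from the middle of the window in Mb, for T9, T1 and T7. Bars run between the quartiles over cells, and the grey band is the window. In T9 the 3 window bins and the bin before them stand at 0.86 to 0.97, above flanks near 0.45, and T1 and T7 show no such rise.

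Bin by bin, all 3 window bins carried the step in T9, and so did 1 bin just outside the window. The middle bin, with Acrv1, Chek1, Stt3a and Ei24, had a level of 0.86 in T9 (SD 0.20), -0.81 in T1 (SD 0.24) and -0.13 in T7 (SD 0.18). The last bin, with Fez1, the homeobox gene Pknox2, Tmem218, the sugar phosphate exchanger gene Slc37a2 and the 3′ part of Ccdc15, stood at 0.97 in T9 (SD 0.28), -0.59 in T1 (SD 0.18) and -0.04 in T7 (SD 0.28). The first bin, which lists 9230110F15Rik, Gm5916 and AC167250.1, stood at 0.91 in T9 (SD 0.21), -0.76 in T1 (SD 0.22) and -0.11 in T7 (SD 0.20). Over the flank level of the same cell the first, middle and last bins were higher by 0.48 (SD 0.12), 0.42 (SD 0.13) and 0.51 (SD 0.16) in T9 cells. The 3 bins differ from each other by less than the spread over cells.

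The bin just before the window, chr9:35309467-35807084, belongs to the flanks by the rule but had the window's level. It lists Cdon, a cell surface co-receptor of hedgehog ligands, with Ddx25, Pus3, Hyls1, Pate2 and Pate1. Its level was 0.88 in T9 (SD 0.21), -0.84 in T1 (SD 0.21) and -0.14 in T7 (SD 0.20). It lay 0.3 or more above the flank level in 40 of 50 T9 cells, 0 of 47 T1 cells and 0 of 48 T7 cells. In T9 cells the same count was 48 for the first bin, 42 for the middle bin and 48 for the last. With it, the raised run in T9 spanned 4 bins, chr9:35309467-37299936, or 1.99 Mb. The lowest of these 4 bins stood above the nearest bin on each side in 49 of 50 T9 cells. The same held in 6 of 47 T1 cells and 3 of 48 T7 cells. The 4 bins were joined for their T9 levels, so these counts restate the choice and support nothing. The nearest bin on the left had a low weight, as given below. Its median departure from the flanks was -0.15 in T9, -0.90 in T1 and 0.02 in T7.

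The right edge of the run was sharp at the scale of a bin. The bin after the window, chr9:37299937-37797553, which lists the 5′ part of Ccdc15, the glial adhesion gene Hepacam and the endothelial receptor gene Robo4, had a level of 0.46 in T9 (SD 0.21). It differed from the flank level by 0.01 (SD 0.14), and 0 of 50 T9 cells had it 0.3 or more above, with an exact upper limit of 7.11% and 6% as 3 cells of the total. The edge therefore lies near the border between the last bin and that next bin, close to or inside Ccdc15, and these bins do not place it more closely.

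The left edge is less well placed, because the bin before the Cdon bin had a low weight. Its scatter over cells was wide in T1 and T7, while in T9 it was like that of some other flank bins. That bin, chr9:34811850-35309466, lists Kirrel3, St3gal4, Dcps, Tirap, Srpr, Foxred1 and others. Its deposited weight was 0.574, a value reached or undercut by 0.499% of autosomal bins, whose median weight was 0.803. Its depth was 3.37 times the autosomal median in T9, 1.24 times in T1 and 2.77 times in T7, and its corrected level was 0.30 in T9 (SD 0.25), -1.58 in T1 (SD 0.37) and -0.04 in T7 (SD 0.49). The next bin outwards, with Kirrel3 alone, stood at 0.50 in T9. Apart from the Cdon and Srpr bins, the other 18 flank bins had medians between 0.35 and 0.56 in T9, between -0.82 and -0.35 in T1 and between -0.13 and 0.01 in T7.

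**Figure D2:**
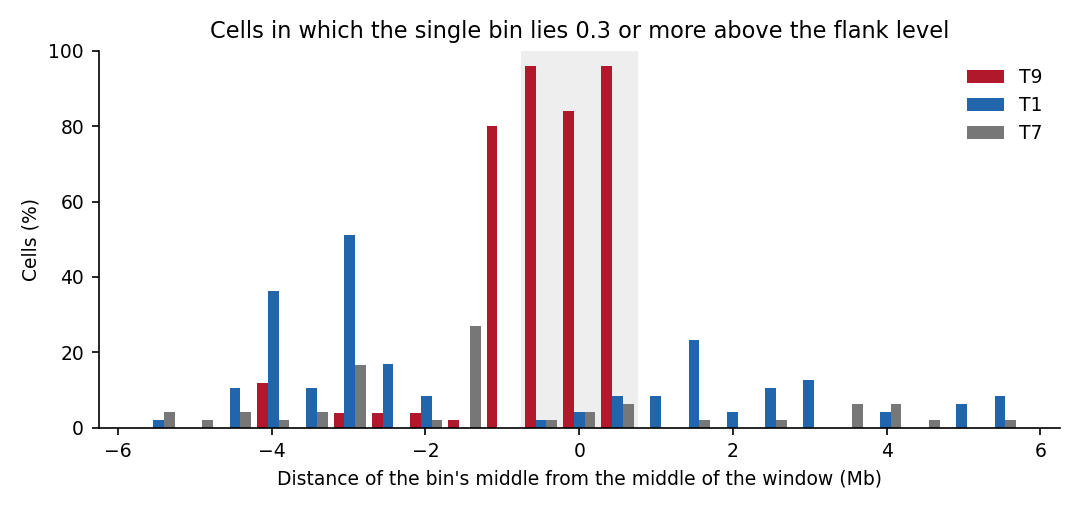
Percent of cells in which a single bin lay 0.3 or more above the flank level of its own cell, against distance from the middle of the window in Mb, for 50 T9, 47 T1 and 48 T7 cells. The grey band is the window. The 4 tallest T9 bars, 40 to 48 of 50 cells, are the Cdon bin and the 3 window bins, and T1 reaches 24 of 47 cells at a bin centred 2.99 Mb before the middle of the window.

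The step varied little between T9 cells. The quartiles over cells were 0.39 and 0.51, and the SD over cells, 0.11, was about the spread of all 3-bin runs within a cell. Across the 50 T9 cells the step had a Pearson correlation of 0.39 and a Spearman correlation of -0.22 with the flank level, -0.03 and 0.03 with noise, and -0.28 and -0.26 with sequenced bases. These are descriptions over cells of 1 tumour, in which both measures share the cell's library and depth. The step is the window minus the flank level, so its correlation with that level is partly built in. The 2 coefficients for the flank level differ in sign. The lowest and highest flank levels were those of cells 180109 (-0.15, step 0.01) and 180116 (0.95, step 0.73). The departures of the 4 raised bins from the flanks correlated with each other over T9 cells, with Pearson values of 0.35 to 0.63. The same values ran from 0.16 to 0.46 over T1 cells and from -0.29 to 0.68 over T7 cells, which had no step. All 4 departures subtract the same flank level of the cell, so part of the correlation is built in.

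**Figure D3:**
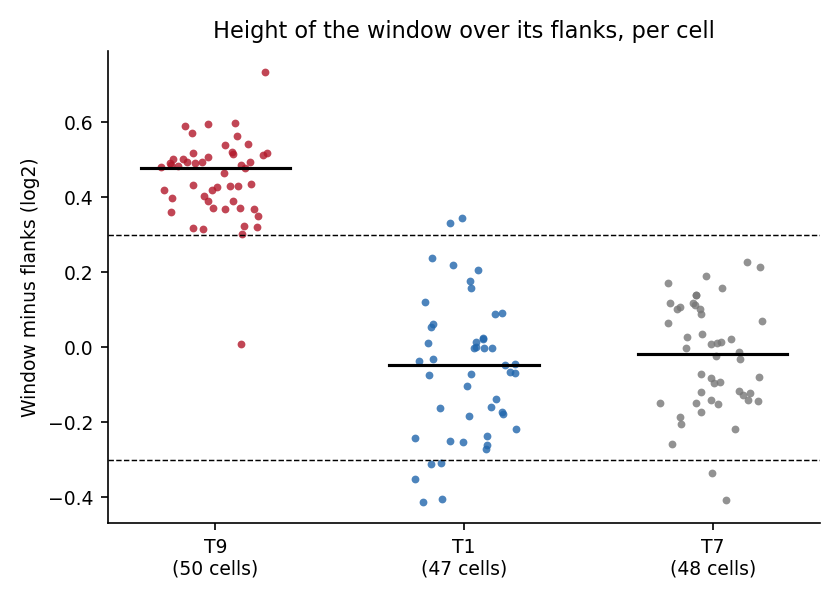
Window minus flanks on the log2 scale for each kept cell of T9, T1 and T7, with sideways jitter only to separate points. Solid lines are medians (0.48, -0.05 and -0.02) and dashed lines stand at 0.3 and -0.3. The T9 cells lie at or above 0.3 but for 1 cell at 0.01.

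A few T9 cells departed from the shared pattern. Cell 180109 had no step, with the window at -0.14 and the flanks at -0.15. Its level over chromosome 9 after the T9 breakpoint was -0.19, and it was 1 of the 3 T9 cells not called lost there, against 47 of 50 that were. The other two, 180111 and 180137, carried the step. In cell 180109 chromosome 6 stood at 0.53 and chromosomes 10 and 11 at 0.27. Its 19 chromosome medians correlated with those of the other T9 cells at 0.24, the lowest value in T9, and with T1 and T7 at 0.14 and 0.12. By the same measure 48 of 50 T9 cells, 47 of 47 T1 cells and 42 of 48 T7 cells were most like their own tumour. T7 cells 180063 and 180084 are among the 42 though they correlated negatively with all 3 tumours, with T7 at -0.02 and -0.06. The 2 T9 exceptions were cells 180111 (0.45 with T9, 0.59 with T7) and 180117 (0.32 with T9, 0.42 with T7), which had steps of 0.32 and 0.57. The noise of cell 180109, 0.114, and its 79.0 Mb of sequenced bases were not those of a poor library. Whether cell 180109 stems from the same clone was not tested. Without it the step was 0.3 or more in 49 of 49 T9 cells, with a median of 0.48.

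In 3 T9 cells the step was present while the flanks did not reach the gain threshold of 0.32, the log2 of 2.5 copies over 2. Cell 180120 had flanks at 0.03 and the window at 0.54, a step of 0.52 with all 3 window bins between 0.48 and 0.67. Cell 180137 had flanks at 0.24, the window at 0.67 and a level of -0.22 after the breakpoint, and cell 180111 had flanks at 0.17 and the window at 0.49. The step and the level after the breakpoint were 0.32 and -0.23 in cell 180111, against T9 medians of 0.48 and -0.60. No T9 cell had gained flanks without the step: flanks were called gained in 46 of 50 T9 cells and all 46 had a step of 0.3 or more. At the other end cell 180116 had the highest window level, 1.69, over flanks at 0.95, a step of 0.73.

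**Figure D4:**
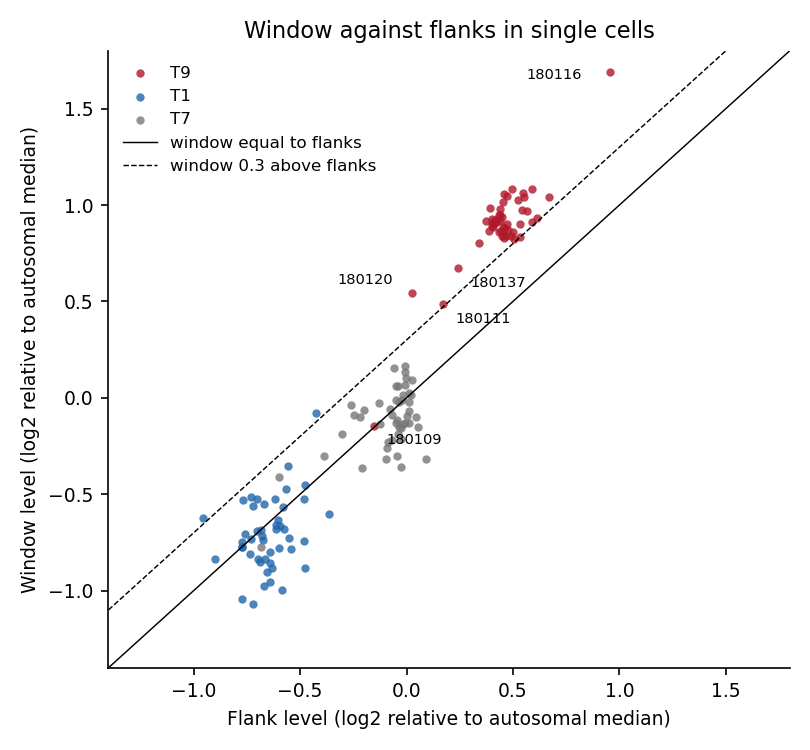
Window level against flank level, both log2 relative to the autosomal median, with 1 point per kept cell of T9, T1 and T7. The solid line marks equal levels and the dashed line a window 0.3 above the flanks, and 5 T9 cells named in the text carry their numbers. The T9 cells cluster near flanks of 0.45 and a window of 0.91, with cell 180120 at flanks of 0.03 and cell 180109 among the T7 cells.

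The gain and loss calls follow from those levels. The window was called gained in 49 of 50 T9 cells (98%), 0 of 47 T1 cells (exact upper limit 7.55%, or 6.38% as 3 cells of the total) and 0 of 48 T7 cells (7.40%, or 6.25%). With -0.42 as the limit for a loss (1.5 copies over 2 on the log2 scale), it was called lost in 0 of 50 T9 cells (exact upper limit 7.11%, or 6%), 45 of 47 T1 cells (95.7%, interval 85.5 to 99.5%) and 1 of 48 T7 cells (2.08%, interval 0.0527 to 11.1%). In T1 the flanks were lost in 46 of 47 cells, so the loss of the window there was that of its neighbourhood.

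The window lay inside a larger gain of proximal chromosome 9 in T9. The largest drop along the chromosome in T9 fell at the bin border at chr9:47252284-124495110, the lost remainder, whose level was -0.60 in T9 (SD 0.13), -0.63 in T1 (SD 0.09) and -0.02 in T7 (SD 0.16). The part before it stood at 0.46 in T9 (SD 0.15), -0.35 in T1 (SD 0.09) and -0.04 in T7 (SD 0.10). In T9 cells the flanks were 2.10 times the level after the breakpoint (SD 0.35) and the window 1.39 times the flanks (SD 0.10). For scale, 4 copies over 3 are a ratio of 1.33 and 6 over 4 a ratio of 1.5. Whole copies were not assigned, since the ploidy of the cells is not given by relative levels.

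Among the 88 bins before the breakpoint, 4 of the 5 highest T9 medians were those of the raised run. The highest, 1.03, was the last bin before the breakpoint, which lists no gene and was also high for its surroundings in the other tumours, by 0.61 in T1 and 0.59 in T7. The next after the raised run was 0.71.

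Against all runs of 3 neighbouring autosomal bins, the window had the seventh highest step in T9. Of 4388 overlapping runs, 19 (0.433%) had a T9 median of 0.3 or more above their flanks, against 32 (0.729%) in T1 and 12 (0.273%) in T7. The window's own step ranked 3038 in T1 and 3078 in T7. Of the 19 T9 runs, 10 were also raised by 0.3 or more in both T1 and T7, among them runs over the Skint gene cluster of chromosome 4. In 9 runs neither T1 nor T7 reached 0.3, and 7 of those were on chromosome 9: 4 overlapped the raised run and 3 lay at the breakpoint. The run just before the breakpoint, chr9:45759432-47252283, with Cep164, Bace1, Sidt2 and the apolipoprotein genes Apoa1, Apoc3, Apoa4 and Apoa5, had a step of 0.67, with flanks that fall on both sides of the break. Against the 10 bins before it alone, its median departure was 0.12 in T9 (SD 0.13), 0.08 in T1 (SD 0.21) and 0.09 in T7 (SD 0.15). Because the window was selected for its step, its rank describes the choice and supports nothing.

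Some partners of the window's genes lay on the lost side of the same chromosome in T9. Of 22 ATR and CHK1 checkpoint genes, 6 were lost in at least 20% of T9 cells and 0 were gained. All 6 lie on chromosome 9 after the breakpoint, the kinase genes Atr and Atm, Atrip for the partner of ATR, Topbp1 for its activator, Tipin for a fork protection factor, and Cdc25a for a phosphatase that CHK1 restrains. Over all 4806 autosomal bins 5.66% were lost and 7.3% gained by the same rule in T9. In T1 11 of the 22 were lost and 0 gained, with 20.7% of bins lost and 25.4% gained, and in T7 0 were lost and 3 gained, with 1.6% lost and 13.7% gained. The median level of the 22 genes was -0.02 in T9, -0.25 in T1 and -0.02 in T7, beside medians over all autosomal bins of 0.01, 0.02 and -0.02.

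Atr was at -0.62 in T9 (SD 0.21), -0.74 in T1 (SD 0.18) and -0.03 in T7 (SD 0.19). The window exceeded the Atr level by 1.54 in T9 cells (SD 0.36, range -0.02 to 2.38), a ratio of 2.91. The same difference was -0.04 in T1 (SD 0.20) and -0.01 in T7 (SD 0.18). The window was called gained and Atr called lost together in 45 of 50 T9 cells (90%, interval 78.2 to 96.7%), and in 0 of 47 T1 cells and 0 of 48 T7 cells. The window, chosen for its T9 rise, was gained in 49 of 50 T9 cells, and the joint count equals that of T9 cells with Atr lost. It therefore adds nothing on pairing. No T1 or T7 cell had a gained window, so the counts of 0 were fixed beforehand. In T1 the window and Atr were both lost in 44 of 47 cells. The kinase gene Chek1 and that of its activating kinase were thus unbalanced in T9 DNA and level in T1 and T7. That imbalance was not particular to the window, since the T9 flanks themselves stood 1.07 (SD 0.26) above the level after the breakpoint.

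The other 5 checkpoint genes on chromosome 9 also had lost levels in T9, in differing shares of cells. Levels there were -0.68 for Topbp1, -0.68 for Tipin, -0.52 for Atm, -0.49 for Atrip and -0.44 for Cdc25a. The window was gained with the gene lost in 45 of 50 T9 cells for Topbp1, 47 for Tipin, 42 for Atm, 34 for Atrip and 30 for Cdc25a, with intervals of 83.5 to 98.8% for Tipin and 45.2 to 73.6% for Cdc25a. Each of these counts equals that of T9 cells with the gene lost, and says nothing on pairing with the window. In T1 5 more list genes were lost outside chromosome 9, Clspn at -0.84, Rpa2 at -0.999, Timeless at -0.49, Rpa1 at -0.38 and Mus81 at -0.22, the last 2 in 17 and 11 of 47 cells. The gained members in T7 included Cdc25b at 0.40 and Rpa3 at 0.29, called in 34 and 21 of 48 cells.

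The oligosaccharyltransferase genes gave the same contrast between the catalytic paralogs. Stt3b, the other catalytic subunit, lies at the far end of chromosome 9 and stood at -0.60 in T9 (SD 0.22), -0.62 in T1 (SD 0.19) and -0.04 in T7 (SD 0.17). The window exceeded it by 1.51 in T9 cells (SD 0.37), and was gained with Stt3b lost in 41 of 50 of them (82%, interval 68.6 to 91.4%). The differences were -0.12 in T1 (SD 0.24) and -0.05 in T7 (SD 0.18), and both lay in lost levels in 42 of 47 T1 cells. The joint count in T9 equals that of T9 cells with Stt3b lost. As for Atr, the T9 contrast was shared by the flanks and was not particular to the window. Of the 11 genes of the list, 2 were gained and 1 lost in T9, 2 gained and 3 lost in T1, and 3 gained and 0 lost in T7. The shares over all autosomal bins were 7.3% gained and 5.66% lost in T9, 25.4% and 20.7% in T1, and 13.7% and 1.6% in T7, and the T1 counts lie near them. The gained pair in T9 and T1 was Rpn1, at 0.47 in T9, 0.58 in T1 and 0.43 in T7, and Dad1, at 0.32, 0.47 and 0.31, whose bin also stood above its own flanks in all 3 tumours. In T7 Rpn2 was gained as well, at 0.36. Ddost, at -0.63, and Magt1 on X, at -0.43, were the further losses in T1.

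None of 16 p53 target genes was gained or lost in at least 20% of T9 cells. In T1 1 was gained and 5 were lost, and in T7 1 was gained and 0 lost. Beside the shares over all bins (7.3% gained and 5.66% lost in T9, 25.4% and 20.7% in T1, 13.7% and 1.6% in T7), the T9 count is near the background. Gadd45a was the gained gene, at 0.25 in T1 (called in 17 of 47 cells) and 0.33 in T7 (26 of 48). The T1 losses were Sesn2 at -0.93 (called in 45 of 47 cells), Trp53inp1 at -0.77 (45), Mdm2 at -0.41 (23), Sesn1 at -0.30 (15) and Perp at -0.17 (12).

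Bins were ranked by the correlation of their departure from their flanks with the window's step, first over all 145 kept cells. The pooled tumours differ in that step, so a bin whose departure differs between tumours correlates through the pooling. On other chromosomes the highest Pearson value among 4202 bins was 0.73, at chr6:70218910-70718507, whose departure from its flanks was 0.15 in T9, -0.24 in T1 and -0.13 in T7. The other 4 were bins with Ninl and Nsfl1c (0.70) and Gm13680 (0.69) on chromosome 2 and with Pip and Sval2 (0.69) and the Vmn1r40 cluster (0.67) on chromosome 6, each lower in T1 than in T9. On chromosome 9 beyond the flanks the 3 highest were the bin before the breakpoint (0.64), a bin with Rasgrf1 and Ctsh (0.63) and one with Prtg and Rab27a (0.60). Within T9 alone the 3 highest on other chromosomes were 0.52 with Taf1b on chromosome 12, 0.49 with Magel2 and Mkrn3 on chromosome 7 and 0.47 with Nit2 and Tomm70a on chromosome 16, with departures in T9 of 0.04, 0.09 and 0.05. Within T1 they were 0.55 with Tlr4, 0.53 with Smn1 and 0.53 with Nrf1, and within T7 0.70 with the Vmn1r40 cluster, 0.69 with Gm5990 and 0.69 at a bin that lists no gene. Any correction by bin may be shared by the cells of a comparison, and depth differs between them. The values given are the highest among many bins. On other chromosomes the 99th percentile was 0.59 over all kept cells, 0.38 in T9, 0.39 in T1 and 0.58 in T7.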

How the data were processed

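The submitters' processing notes name BWA 0.7.17 as the aligner and GRCm38 as the genome build. The authors deposited, per bin and cell, a depth (coverage signal), a log2 ratio, and a weight (a score that is the same in all cells). The log2 ratio departs from the depth ratio from bin to bin and is read here as corrected by bin. The steps behind the log2 ratio and the weight, and the sorting and amplification of cells, do not appear in the sources used here. Bins on autosomes and X with values in at least 80% of cells were kept (5149, of which 4806 autosomal). Cells were kept up to a noise of 0.267, the median plus 3 scaled median absolute deviations, which left out 3 T1 and 2 T7 cells, and each was centred on its autosomal median. Relative levels cannot show a doubling of the whole genome. No doublet caller was run.

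The window and the gene lists were chosen with earlier results of these data known. Named genes are the 6 of interest, the genes of the window and nearest bins, the list genes lost or gained in 20% or more of the cells of a tumour by the median over their bin and 1 bin on either side, and the most alike bins. The cells numbered in the text, the runs near the breakpoint and the pairs with Atr and Stt3b were picked after their values were seen. The measures were tested on simulated data with planted steps. Alternatives were the ratio from depth, mode centring, weighted means, other cell filters, other flanks, left-out bins and other thresholds. Gene positions and start sites came from RefSeq tables of GRCm38.p6. An engineered allele of the strain and the values of 1 listed gene are not reported here. Python 3.11.15, numpy 2.4.6, pandas 2.3.3, scipy 1.17.1 and matplotlib 3.10.9 were used.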

Additional observations from a re-analysis of the deposited data

How the results depend on the processing

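Of 181 values recomputed under alternatives, 156 stayed within the spread over cells, the counting interval or 1.5 times the reported value, and 25 moved beyond it. A change of sign was checked only for medians of 0.3 or more in size, the T9 and T1 window levels and the T9 step. Among these 0 changed sign. The T7 window level and step are smaller and were not covered by that check. The T9 step ranged from 0.42, with the flank before the window only, to 0.79, and the T9 window level from 0.88 to 1.23. Both highest values came from the depth ratio with no correction by bin, under which the T7 window level was 0.12, the T7 step 0.24 and the share of T7 cells with a step 43.8%, while 80.9% of T1 cells were called lost. The T1 step stayed at -0.05 under it, and the cause was not tested. Taking out each bin's median over all kept cells instead gave a T9 step of 0.49 and a T1 step of -0.25. The share of T9 cells with a step was 88% without the Fez1 bin, 32% at a threshold of 0.5, 88% with the Cdon bin added to the window and 100% without cell 180109, and the last 2 alternatives were chosen after seeing the data. Without that cell 100% of T9 cells were called gained. The share of T1 cells with a step was 0% at a threshold of 0.5 and 0% with the Cdon bin added. At stricter copy thresholds, -0.7 and 0.45, 55.3% of T1 cells were called lost, and at looser ones, -0.3 and 0.25, 14.6% of T7 cells were. On chromosome 9 alone 3.15% of T9 runs, 0% of T1 runs and 0% of T7 runs reached 0.3. Over the 49 listed genes the counts were 2 gained and 7 lost in T9, 3 and 19 in T1, and 7 and 0 in T7. With the uncorrected depth ratio 12 were gained in T9, 23 in T1 and 17 in T7, and 11 lost in T1. At stricter thresholds 4 were lost in T9 and 4 gained in T7. No paired analysis was possible because the replicate numbers only name cells and no result comes from a test. The bins of about 500 kb limit where the edges lie, and the scatter within a cell limits what can be said of steps under about 0.3 in single cells.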
